A study of Mus musculus with 4 samples.

Results

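The genes described here are the 3 osteocalcin copies of the mouse (Bglap, Bglap2 and Bglap3) together with Sparc and Mgp, all of which encode secreted proteins. Members were taken by gene symbol, and each of the 5 symbols named a single row among the 56980 genes of the count table. The libraries are RNA-seq of sorted bone marrow mesenchymal stromal cells (MSCs), 1 library from each of 4 wild-type male mice of the strain C57BL/6J, bred in-house and aged 14 weeks. There is no treatment, no altered allele and no second group, so the 4 mice were taken as 1 group and comparisons were made between genes within a mouse. Each library was made from 100 cells of 1 animal that were negative for CD45, Ter119, CD31 and Sca1 and positive for CD51 and PDGFRa. Oligo-dT primed cDNA was amplified by PCR before sequencing, which limits how well a library stands for the stromal cells of an animal.

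Osteocalcin is the most abundant non-collagenous protein of bone that is made by osteoblasts, and it binds mineral through glutamate residues that are carboxylated with the help of vitamin K. Matrix Gla protein, the product of Mgp, carries the same modification and restrains calcification of cartilage and arteries. Osteonectin, the product of Sparc, binds collagen and calcium and is not carboxylated. Mature osteoblasts are the known source of Bglap and Bglap2 in bone, whereas Bglap3, the osteocalcin-related gene, is known for expression outside bone.

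Library totals ran from 22738604 to 43545349 counts, with 16109 to 18907 genes holding a count. Transcripts of the sorted antigens Pdgfra (30.7 to 48.2 TPM) and Itgav, which encodes CD51 (12.9 to 18.1 TPM), were found in every mouse. TPM is the count per base of annotated exon, scaled to 1000000 per library. Of the antigens sorted against, Ptprc (CD45) had at most 50 counts (0.264 TPM) and Pecam1 (CD31) at most 14 (0.218 TPM). Ly6a (Sca1) was at 0.0472 TPM in mouse 1 and 0 in mouse 3. It reached 8.95 TPM in mouse 2 and 11.6 TPM in mouse 4 (144 counts), where Itgav was at 14.3 and 17.5 TPM. All 4 osteoblast markers and all 5 markers of niche stromal cells, Lepr and Cxcl12 among them, were above 1 TPM in every mouse. Of all genes with a length, 15.4% were. Markers of endothelial cells summed to at most 0.235 TPM, those of macrophages to 9.36 TPM and those of neutrophils to 30.7 TPM. The osteoclast markers summed to between 274 and 682 TPM, most of it Ctsk. Acp5 was at 79.2, 0, 48.2 and 7.58 TPM in mice 1 to 4. Calcr had at most 4 counts and Oscar 0 counts in every mouse. Erythroid markers summed to 3821 TPM in mouse 1, 21.1 in mouse 2, 1336 in mouse 3 and 277 in mouse 4. The labels name no separate batches.

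The 3 osteocalcin copies lie in a row on the minus strand of chromosome 3, within 15849 bases (GRCm38, chr3:88368616-88384464). Bglap (ENSMUSG00000074483) lies at chr3:88383501-88384464, Bglap2 (ENSMUSG00000074486) at chr3:88377736-88378699 and Bglap3 (ENSMUSG00000074489) at chr3:88368616-88372743. Each has a coding sequence of 288 bases in 4 coding exons, which gives 95 codons before the stop. The coding sequences are shown because the counts of the copies depend on how far reads can tell them apart. They are from GENCODE M21 transcripts, and capitals mark every base at which any of the 3 copies differs.
Bglap: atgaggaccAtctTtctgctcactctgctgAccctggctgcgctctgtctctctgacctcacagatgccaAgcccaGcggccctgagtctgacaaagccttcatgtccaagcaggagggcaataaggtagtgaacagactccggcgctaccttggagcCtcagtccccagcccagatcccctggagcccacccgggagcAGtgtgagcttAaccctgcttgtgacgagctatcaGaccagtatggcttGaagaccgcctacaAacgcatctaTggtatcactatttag
Bglap2: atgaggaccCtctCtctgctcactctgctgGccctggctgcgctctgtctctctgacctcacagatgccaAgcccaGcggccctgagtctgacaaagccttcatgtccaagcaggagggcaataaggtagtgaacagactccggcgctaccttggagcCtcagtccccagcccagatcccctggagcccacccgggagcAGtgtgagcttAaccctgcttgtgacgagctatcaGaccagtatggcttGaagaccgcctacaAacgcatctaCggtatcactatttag
Bglap3: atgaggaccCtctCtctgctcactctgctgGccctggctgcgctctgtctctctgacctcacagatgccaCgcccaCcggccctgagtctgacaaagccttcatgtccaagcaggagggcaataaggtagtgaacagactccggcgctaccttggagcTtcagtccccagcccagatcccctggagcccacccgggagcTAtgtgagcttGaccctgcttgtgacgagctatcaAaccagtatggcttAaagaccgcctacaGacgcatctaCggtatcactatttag

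Positions are counted from 1 at the A of the start codon, with the base of the copy named first written first. Bglap and Bglap2 were identical at 98.6% of coding bases and differed at 4 of them. A10C, T14C and A31G change a residue and fall in codons 4, 5 and 11, in the stretch that encodes the signal peptide removed on secretion. T273C, in codon 91, is synonymous. The longest run without a difference was 241 coding bases, and the 134 annotated bases after the stop did not differ either. Bglap2 and Bglap3 differed at 9 coding bases (96.9% identity), of which A71C, G77C, A200T, G201A, A211G, G235A and A263G lie in the 6 codons that change a residue. Bglap and Bglap3 differed at 13 coding bases (95.5% identity).

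Whether a read can be placed then depends on its length. Every window of a given length in the longest annotated transcript was searched for in the transcripts of all other genes. At 100 bases, the length of the reads, 149 of the 341 windows of Bglap (43.7%) and 160 of the 372 windows of Bglap2 (43.0%) were found in no other gene. The 192 other windows of Bglap were found in Bglap2, and Bglap2 shared 20 more with Bglap3. Bglap3 was set apart in 1932 of its 1952 windows, and Sparc and Mgp in all of theirs. At 50 bases the private windows fell to 99 for Bglap and 50 for Bglap2. At 300 bases, a length that a read pair could span, all windows of the 3 copies were private when read in full. A pair reads 100 bases at each end, so a difference in the unread middle does not place it. Introns and the sequence between genes were not searched, and no member overlaps an exon of another annotated gene. A count of Bglap or Bglap2 is therefore a count of the pairs that could be placed, and their values are uncertain to that extent.

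**Figure D1:**
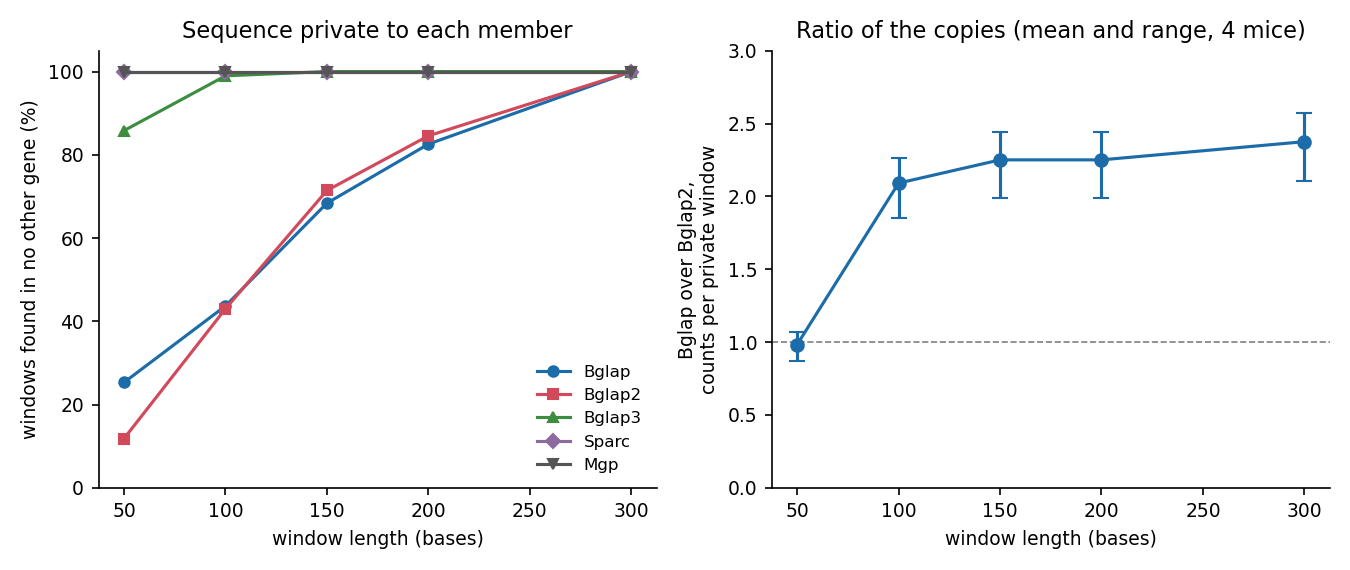
Left, share of windows (y axis, percent) of the longest transcript of each member found in no other annotated gene, against window length in bases; right, counts per private window of Bglap over those of Bglap2, as the mean (point) and the range (bar) of 4 mice, with a dashed line at equality. Bglap and Bglap2 were private in 43.7% and 43.0% of windows at 100 bases, and their ratio was 0.984 at 50 bases and 2.09 at 100 bases.

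Bglap had the highest median TPM of all genes, although it ranked 2 in mouse 3. In counts, with no length, Col1a1 was above it in every mouse, with 1832072 to 3515929. The level of Bglap was 96604 TPM in mouse 1, 119827 in mouse 2, 55668 in mouse 3 and 156730.4 in mouse 4, or 107207 ± 42350 TPM (mean ± SD, n = 4). Mouse 4 was highest and mouse 3 lowest, 2.82-fold apart. The underlying counts were 1050336, 823818, 594473 and 1000940 in the same order, so counting error was far below the spread between mice, at a coefficient of variation (CV) of 0.108% against 39.5%. Intervals from counts cover counting error only, since PCR copies are not independent molecules. In libraries of 100 pooled cells, fewer cells with a transcript and less of it per cell cannot be told apart.

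Bglap2 had the second-highest median TPM. It stood at 64790 TPM in mouse 1, 78631 in mouse 2, 42376 in mouse 3 and 97409 in mouse 4, or 70801 ± 23191 TPM (SD, n = 4). The mice were in the same order as for Bglap, and the part of shared sequence in that order was not tested.

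Bglap3 was far lower. Its counts were 1020 in mouse 1, 991 in mouse 2, 589 in mouse 3 and 1657 in mouse 4. Its level was 22.1, 33.9, 13.0 and 61.0 TPM, or 32.5 ± 20.9 TPM (SD, n = 4). It ranked 2779 by median TPM, above 94.7% of the genes with a length. Again mouse 4 was highest and mouse 3 lowest. It took 0.0642% of the counts of the 3 copies in mouse 1 (95% Wilson interval 0.0604 to 0.0683), 0.0801% in mouse 2 (0.0753 to 0.0853), 0.0627% in mouse 3 (0.0578 to 0.0679) and 0.112% in mouse 4 (0.107 to 0.118). How many of these pairs came from transcripts of the other copies was not tested, since a count table does not say where in a gene a pair fell.

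Of the counts of Bglap and Bglap2 together, Bglap took 66.2% in mouse 1 (95% Wilson interval 66.1 to 66.2), 66.7% in mouse 2 (66.6 to 66.7), 63.3% in mouse 3 (63.2 to 63.4) and 67.9% in mouse 4 (67.8 to 67.9). The share was 66.0% ± 1.94 (SD, n = 4), a narrow range beside that of the levels. Per base of exon, Bglap exceeded Bglap2 in 4 of 4 mice, by 0.57 ± 0.12 on the log2(TPM + 1) scale (SD), or 1.48-fold. The exact sign-flip permutation test over mice (two-sided) gave p = 0.125, and 0.125 after adjustment over the 4 comparisons made, which is the smallest p that 4 mice allow. The exon length of Bglap, 618 bases, includes a transcript with a retained intron, whereas that of Bglap2 is 471 bases. Set against private windows, a measure chosen after the data were seen, the ratio was 2.09 at 100 bases (range 1.85 to 2.27), 2.38 at 300 bases (2.10 to 2.58) and 0.984 at 50 bases (0.871 to 1.07). Bglap was thus higher in every mouse with windows of 100 bases, the length of the reads, and above. With 50-base windows the mean log2 difference was -0.028 (exact permutation p = 0.75). The study's alignment also accepted pairs of which only part of the bases aligned. A counted stretch can therefore be shorter than a read, and a pair leaves the middle of a 300-base window unread. Which window length fits these counts was not tested.

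Bglap2 exceeded Bglap3 in 4 of 4 mice by 11.2 ± 0.43 on the log2(TPM + 1) scale (SD, n = 4), or 2344-fold, with a range of 1571-fold to 3034-fold (exact permutation p = 0.125, adjusted p = 0.125). This difference kept its direction under every length used, but its size depended on the length. The mean log2 difference was 8.72 with no length and 13.8 with private windows of 50 bases. With no length, Bglap2 had between 286 and 586 counts per count of Bglap3. The fold range above is that between mice and does not cover the choice of length.

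Summed over the 3 copies, osteocalcin reached 161416 TPM in mouse 1, 198491 in mouse 2, 98057 in mouse 3 and 254200.1 in mouse 4, or 178041 ± 65555 TPM (SD, n = 4). Between 9.81% and 25.4% of all TPM lay in the cluster, a share that depends on the length used, as it took between 2.20% and 6.49% of the counts. In TPM, mouse 4 held 2.59 times the level of mouse 3. No gene outside the cluster had a mean within a factor of 2 of this level, so there is nothing to set its CV of 36.8% beside. The osteoblast markers Ibsp, Alpl, Sp7 and Col1a1 summed to 41527 ± 2509 TPM and were highest in mouse 3, at 44359 TPM. Ibsp was highest there (20907 TPM against at most 13101 TPM), whereas Col1a1 was lowest there (22235 TPM) and Sp7 was highest in mouse 1 (339 TPM). The osteocyte markers summed to 1337 TPM in mouse 1, 648 in mouse 2, 2246 in mouse 3 and 491 in mouse 4, which is the reverse of the order of the osteocalcin sum. Most of that sum was Dmp1 (1262, 588, 2105 and 435 TPM), whereas Phex ran otherwise, with 56.2, 41.4, 21.3 and 49.7 TPM in mice 1 to 4. Of these 4 markers, 3 were above 1 TPM in every mouse, against 15.4% of all genes with a length. Sost, the gene of sclerostin, had 0 counts in every mouse. The part of osteocyte transcripts in the osteocalcin values was not tested.

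**Figure D2:**
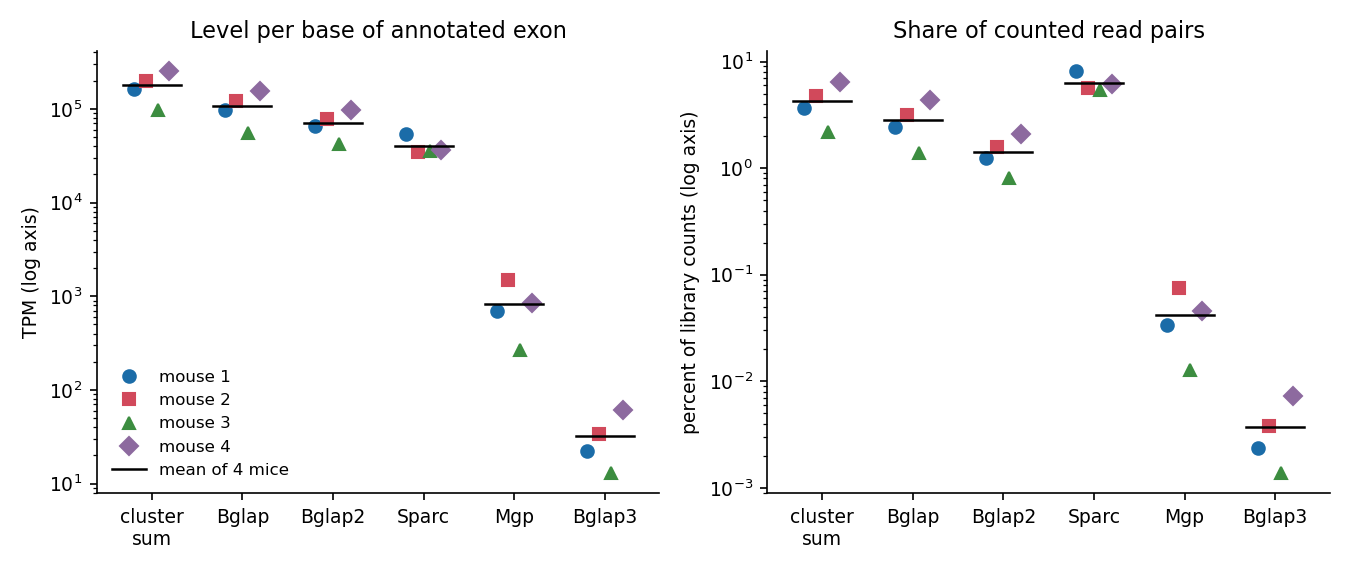
Level of the osteocalcin sum and of each member in TPM (left) and as a percentage of all counts of a library (right), both on log axes; points are the 4 mice and lines their means. Mouse 3 was lowest for the osteocalcin sum, for each of its copies and for Mgp, and mouse 1 was highest for Sparc.

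Sparc (ENSMUSG00000018593) lies on the minus strand at chr11:55394500-55423183 (GRCm38), with 10 exons in its longest transcript. It stood at 53457 TPM in mouse 1, 35001 in mouse 2, 35131 in mouse 3 and 36036 in mouse 4, or 39906 ± 9046 TPM (SD, n = 4). Mouse 1 lay apart, and the other 3 mice differed by little, with a CV of 1.59% without mouse 1 against 22.7% with it. Other scalings narrowed that gap: with the 5 members left out of the denominator, Sparc was 68149, 45751, 40541 and 50833 TPM. Platelets are a known source of Sparc, and mouse 1 also had the highest sum of megakaryocyte and platelet markers, 7.95 TPM against 0, 0.267 and 0 in mice 2 to 4. Of those markers Itga2b was at 0 counts in every mouse, Pf4 had 1 count in mouse 1 and none elsewhere, and Gp9 gave 122 of the 123 counts of mouse 1. Erythroid markers were also highest in mouse 1 (3821 TPM), and their part in the Sparc level was not tested.

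Sparc had the fourth-highest median TPM, behind Bglap, Bglap2 and Spp1 (osteopontin) and ahead of Col1a1. Osteocalcin, as the sum of its copies, exceeded Sparc in 4 of 4 mice by 2.10 ± 0.66 on the log2(TPM + 1) scale (SD), or 4.28-fold, from 2.79-fold in mouse 3 to 7.05-fold in mouse 4 (exact permutation p = 0.125, adjusted p = 0.125). That order depended on the length used: in CPM (counts scaled to 1000000 per library, with no length) the mean log2 difference was -0.66 (exact permutation p = 0.25). Among the members Bglap2 was next above Sparc. It was higher in TPM within each of the 4 mice, although its range between mice (42376 to 97409 TPM) overlapped that of Sparc (35001 to 53457 TPM). With no length the order turned in every mouse, with 8068 to 20851 CPM for Bglap2 and 53794 to 81813 CPM for Sparc. That pair was not tested.

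Mgp (ENSMUSG00000030218) lies on the minus strand at chr6:136872435-136875823 (GRCm38). It had 14682 counts in mouse 1, 19519 in mouse 2, 5416 in mouse 3 and 10439 in mouse 4. In TPM these are 703, 1478, 264 and 851, or 824 ± 502 TPM (SD, n = 4). Mouse 2 stood 5.60-fold above mouse 3, the widest range of the 5 members. Its CV of 60.9% was above that of 176 of the 187 other genes whose mean lay within a factor of 2, which had a median CV of 19.97%. For Bglap3, at 64.2%, 2125 of 2703 genes of like level had a lower CV, and the median was 39.9%.

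Chondrocytes and vascular smooth muscle are known sources of Mgp. The chondrocyte markers summed to 236 TPM in mouse 1, 391 in mouse 2, 149 in mouse 3 and 396 in mouse 4, lowest in mouse 3 as Mgp was, and most of it was Col2a1. Col9a1 went the other way, highest in mouse 3 (12.2 TPM), and Sox9 was highest in mouse 1 (23.3 TPM). Of 4 chondrocyte markers 3 had a median above 1 TPM and 1 was above it in every mouse. Of all genes with a length, 22.9% and 15.4% did so. Their part in the Mgp level was not tested. The smooth muscle markers were at or near 0, with Acta2 and Cnn1 at 0 counts in every mouse, 2 counts of Tagln in mouse 3 and 92 of Myh11 in mouse 4. The pericyte markers summed to 8.44, 31.9, 11.4 and 19.1 TPM in mice 1 to 4. The niche stromal markers were highest in mouse 2, where Mgp was highest (4633 TPM), but mouse 3, lowest for Mgp, came next with 2369 TPM. The adipocyte lineage markers showed the same order at the top, with 962 TPM in mouse 2 and 439 in mouse 3.

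Sparc exceeded Mgp in 4 of 4 mice by 5.82 ± 1.07 on the log2(TPM + 1) scale (SD, n = 4), or 56.3-fold, from 23.7-fold in mouse 2 to 133-fold in mouse 3 (exact permutation p = 0.125, adjusted p = 0.125). In order of mean TPM the members therefore ran Bglap, Bglap2, Sparc, Mgp and Bglap3. All 5 had a median above 1 TPM, against 22.9% of the 52125 genes with a length, and all 5 were above 1 TPM in every mouse, against 15.4%. Together they took between 133452 and 291088 TPM of each library.

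**Figure D3:**
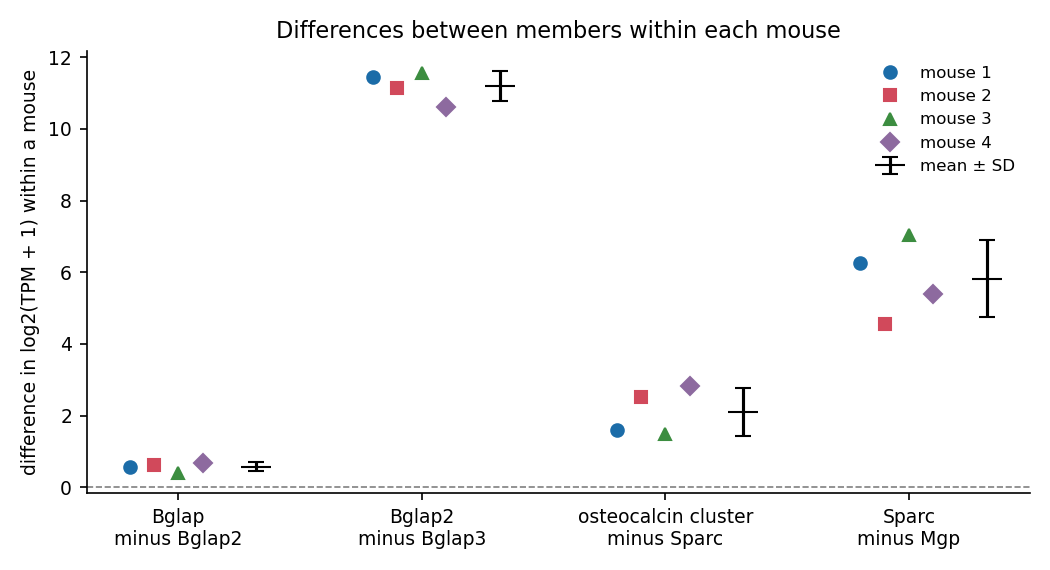
Differences in log2(TPM + 1) between members within each mouse (y axis) for the 4 comparisons; points are mice and bars the mean ± SD. All points lie above 0, and the difference between Bglap and Bglap2 (0.57) was the smallest of the 4.

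Genes around the cluster were far below Bglap and Bglap2, and Glmp and Cct3 had higher medians than Bglap3 (28.0 TPM). Within 50000 bases the annotation has 10 other genes, 7 of them above 1 TPM by median, against 22.9% of all genes with a length. Glmp was the highest at 47.7 TPM, with Cct3, a chaperonin subunit, at 41.9 TPM. Paqr6, whose 3′ end lies 75 bases from the cluster, had 0, 2, 2 and 0 counts. Between the copies lie the unprocessed pseudogenes Gm21956, with 0 counts in every mouse, and Gm6821, with 46 counts in mouse 3 and 0 in the others. Smg5, 6278 bases away, had a median of 3.29 TPM, and Pmf1, 9679 bases away on the other side, 6.25 TPM.

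**Figure D4:**
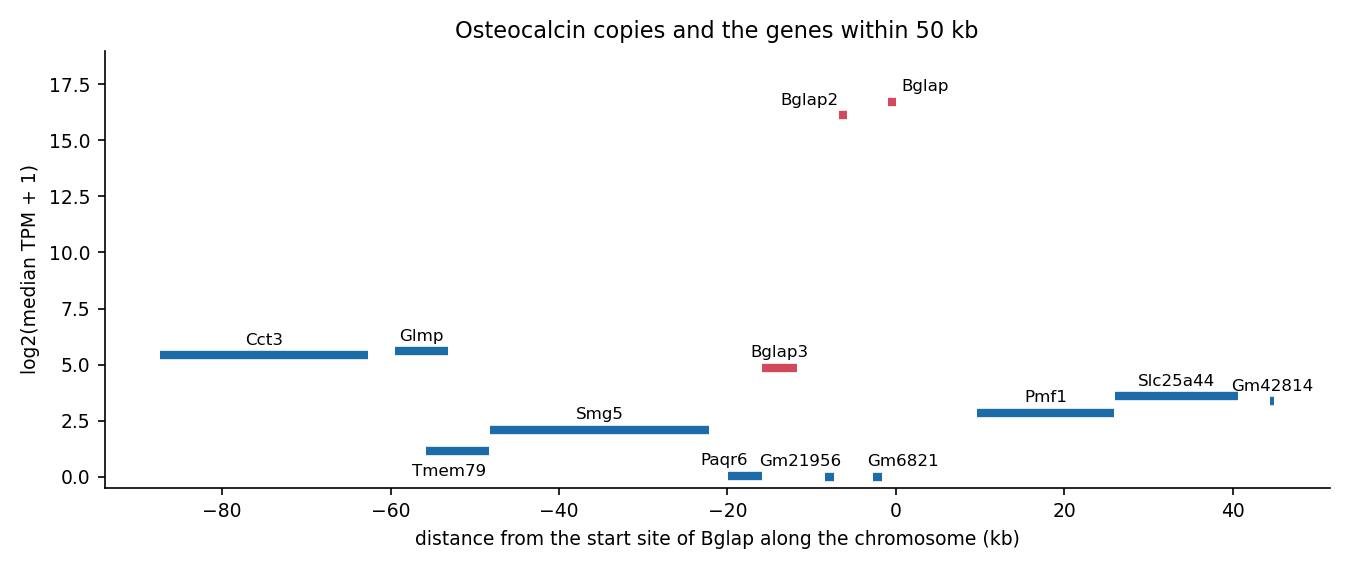
Median level over 4 mice, as log2(median TPM + 1) on the y axis, of the osteocalcin copies (red) and of the genes within 50000 bases (blue), against distance from the start site of Bglap in kb; bars span each gene. Bglap and Bglap2 stand apart from all neighbours, whose highest median was 47.7 TPM.

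Promoter sequence was at hand for 3 of the 5 members (Bglap, Bglap3 and Sparc) in RefSeq on GRCm38.p6, as the 250 bases before a start site. The osteoblast regulators RUNX2 and ATF4 are known to act on the Bglap promoter. The windows of Bglap and Bglap3 are shown as those at hand among the copies, and Bglap2 had none. Their part in the levels of the copies was not tested. The Bglap window is chr3:88384467-88384716 and the Bglap3 window, 1 of 3 for that gene, is chr3:88369832-88370081, both read on the minus strand. Capitals mark matches, on either strand, to the RUNX core ACCACA, the ATF4 element of osteocalcin TTACATCA and the TATA box TATAAA, which do not overlap one another here.
Bglap: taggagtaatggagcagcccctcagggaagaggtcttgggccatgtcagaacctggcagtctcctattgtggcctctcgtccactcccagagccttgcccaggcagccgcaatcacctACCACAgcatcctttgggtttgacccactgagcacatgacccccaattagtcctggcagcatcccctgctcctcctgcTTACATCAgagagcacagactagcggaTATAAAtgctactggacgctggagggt
Bglap3: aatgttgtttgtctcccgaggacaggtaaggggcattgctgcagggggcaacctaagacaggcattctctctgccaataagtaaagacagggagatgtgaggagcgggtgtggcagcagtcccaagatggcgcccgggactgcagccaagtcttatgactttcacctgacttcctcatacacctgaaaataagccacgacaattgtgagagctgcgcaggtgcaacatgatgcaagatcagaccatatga

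The Bglap window held 1 match to each motif, starting at -132 (ACCACA), -54 (TTACATCA) and -27 (TATAAA) from the start site. Of 32851 such windows, 14.0% hold ACCACA, 0.965% TTACATCA and 12.4% TATAAA. TTACATCA is by name an element of osteocalcin, so its match in Bglap was given beforehand. These shares are therefore no measure of enrichment. None of the 3 windows of Bglap3 and not the window of Sparc held these letters. Only the exact letters were searched, so a variant of a motif, the TATA box included, would be missed. A match is only a match of letters, and no binding was measured in these cells.

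The genes known to regulate osteocalcin were nearly all found. Of 10, 9 had a median above 1 TPM, against 22.9% of all genes with a length. The same 9 were above it in every mouse, against 15.4%, with a list median of 90.6 TPM. Runx2, the master factor of the osteoblast lineage, was at 44.2 ± 6.85 TPM (SD, n = 4) and its partner Cbfb at 57.5 ± 2.29 TPM. Sp7 (osterix) was highest by mean with 226 ± 89.2 TPM, and Atf4 was at 214 ± 26.6 TPM. Vdr, the vitamin D receptor, was at 94.2 ± 36.4 TPM. Msx2, a repressor of osteocalcin, had 235 counts in mouse 1, 1 in mouse 4 and 0 in the others.

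The enzymes that carboxylate osteocalcin and matrix Gla protein were also found. All 7 genes of the vitamin K cycle and carboxylation had a median above 1 TPM, against 22.9% of all genes with a length. In every mouse 4 of them were above it, against 15.4%, and the list summed to 1430 ± 334 TPM (SD, n = 4). Vkorc1, which recycles vitamin K, was highest at 956 ± 204 TPM. Calu, a calumenin that binds the carboxylation machinery, was at 331 ± 84.2 TPM and Ggcx, the gamma-carboxylase itself, at 105.1 ± 50.6 TPM. Vkorc1l1, a paralog of Vkorc1, had 1145, 700 and 1261 counts in mice 1 to 3 and 1 count in mouse 4.

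Among 13 other genes of vitamin K-dependent proteins, 5 had a median above 1 TPM, against 22.9% of all genes with a length. Another 3 had no count in any mouse (F2, F9 and Proz, clotting factors made in the liver or their relatives). By counting error alone, a count of 0 allows up to 3 counts, or between 0.0689 and 0.132 per 1000000 counts of these libraries. That bound does not cover PCR copies or transcripts lost before sequencing, so it is no upper limit on expression. Gas6, a ligand of TAM receptors, was the highest, with 215 TPM in mouse 1, 1210 in mouse 2, 502 in mouse 3 and 132 in mouse 4. Pros1, the gene of protein S, was at 74.5 ± 28.5 TPM (SD, n = 4). Ucma, a Gla-rich protein of cartilage, had 3952 counts in mouse 1 and 0 in the other mice.

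Of 6 genes listed around osteocalcin processing and receptors, 3 had a median above 1 TPM, against 22.9% of all genes with a length. The list summed to only 12.6 ± 4.12 TPM (SD, n = 4). Furin, which cleaves the osteocalcin propeptide, was at 4.46 ± 1.99 TPM. Insr, the receptor of insulin and not of osteocalcin, was at 2.18 ± 0.851 TPM. Gprc6a, a proposed receptor of osteocalcin, had 0 counts in every mouse. Gpr158, another, had 13, 1, 0 and 126 counts in mice 1 to 4.

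Sparc stood alone in its family at this level. Of 7 relatives 3 had a median above 1 TPM, against 22.9% of all genes with a length. They were Fstl1 at 179 ± 103 TPM (SD, n = 4), Smoc2 at 33.5 ± 26.7 TPM and Smoc1 at 8.96 ± 9.60 TPM. Sparcl1, the closest relative of Sparc, had 48 counts in mouse 4 and 0 in the others. Of 9 genes of proteins that bind SPARC or matrix Gla protein, 8 had a median above 1 TPM, against the same 22.9%. Col1a1 was at 26626 ± 3682 TPM and Col1a2 at 11265 ± 1957 TPM. Bmp4, whose product matrix Gla protein can bind, was at 41.6 ± 19.2 TPM and Bmp2 at 8.65 ± 8.03 TPM.

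**Figure D5:**
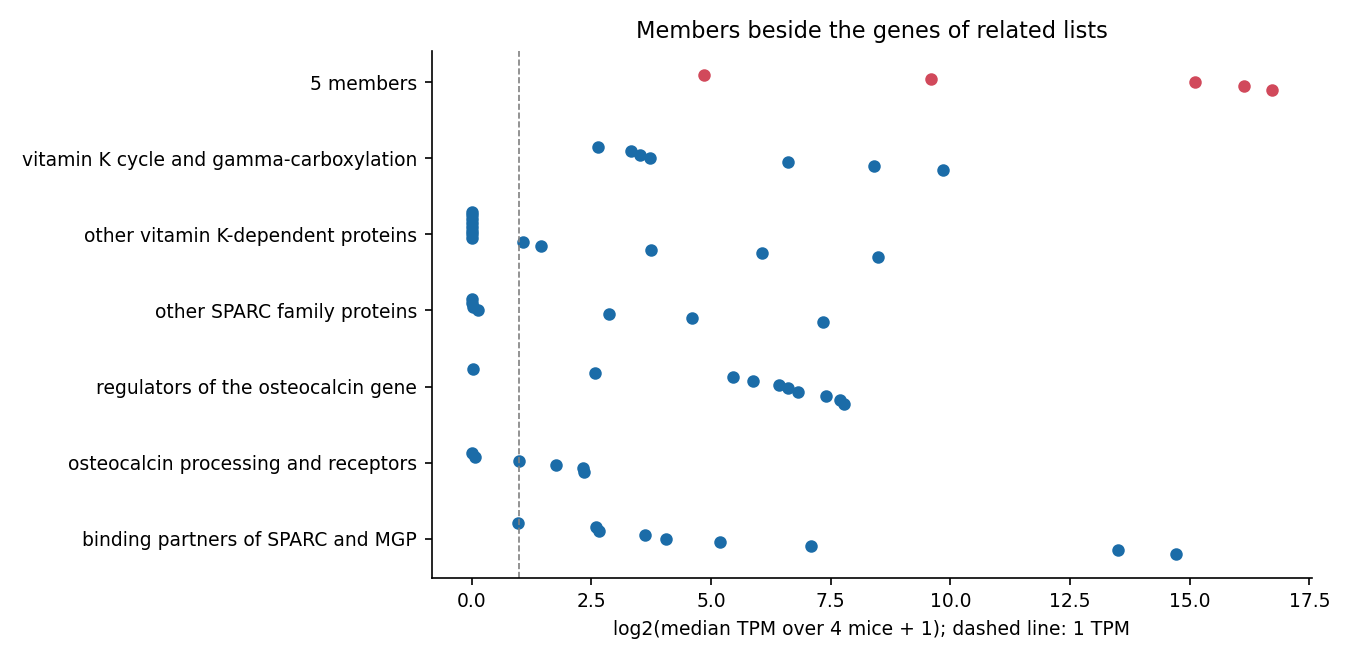
Median level over 4 mice, as log2(median TPM + 1) on the x axis, of the 5 members (red) and of the genes of 6 related lists (blue), 1 point per gene; the dashed line is 1 TPM. Of the listed genes Col1a1 and Col1a2 were the highest, at medians of 26909 and 11533 TPM, and no gene of osteocalcin processing and receptors had a median above 4.06 TPM.

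The genes whose pattern over the mice was most like a member's were sought among genes of at least 10 TPM on average, by the root mean square distance of log2(TPM + 1) after centring each gene on its own mean. For the osteocalcin sum, Fam118b (0.0719) and Mrpl47 (0.0897) were nearest of 5682 genes, whose median distance was 0.806. For Sparc, of 5684 genes, they were Rabac1 (0.0479), Col11a2 (0.0491), a fibrillar collagen chain, and Lox (0.0532), a collagen crosslinking enzyme, with a median of 0.537. For Mgp they were Rbbp5 (0.180), Stard7 (0.207) and Fam110d (0.226), with a median of 1.12. Over 4 mice these distances are a description.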

How the data were processed

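The authors deposited 1 table of raw counts, with a column for each of 4 MSC libraries. Per the study's methods for these cells, read pairs were aligned to GRCm39 with STAR 2.7.10 and uniquely mapped pairs were counted on exons with featureCounts (Subread 1.6.5), with no strand option given. Pairs that matched several places equally well were therefore not counted, which bears on Bglap and Bglap2. The alignment kept pairs of which only part of the bases aligned, so a counted stretch can be shorter than a read. The cDNA was amplified by PCR and molecular identifiers are not described. Every column of the table was used. All libraries were compared, and none was a copy of another.

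From these counts TPM was computed with Python 3.11.15, numpy 2.4.6, scipy 1.17.1 and pandas 2.3.3, using the union of annotated exons of GENCODE M21 on GRCm38 as length. No coordinates were converted between builds. Of 56980 genes 52125 had a length, and these held 96.1% to 98.2% of the counts. Differences of log2(TPM + 1) within a mouse were tested over the 4 mice by flipping signs in all possible ways (exact permutation, two-sided), with Benjamini-Hochberg adjustment over 4 comparisons. Nothing says that the mice were processed separately in every step, so the p-values concern these libraries only. When all 4 differences have the same sign, the exact permutation p is 0.125, whatever their size or spread. Scaling factors were from edgeR 4.0.16. The code was tested on simulated data.

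Private windows were searched among annotated transcripts, as no genome sequence was used here. Named genes were the members, genes of the pathway lists (the highest, those at 0 and those described), genes within 50000 bases of the cluster and the 3 genes of most similar pattern, of which some are not reported here. The members and lists were chosen with earlier results of these data known.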

Additional observations from a re-analysis of the deposited data

Results flagged for a closer look

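Among 38 sets of 4 values, 4 had a mouse far from the other 3, measured as its gap to the nearest mouse over the whole range. For independent sets of normal values chance would give about 1 in 20, or 1.90 of 38. These sets share genes and some lie near 0, so that number is no yardstick for the 4 found. For Sparc in TPM the gap took 0.944 of the range, with mouse 1 above the others (53457 against at most 36036 TPM). It took 0.627 of the range with the 5 members out of the denominator, 0.718 with TMM factors and 0.639 with median-of-ratios factors. The other 3 were marker lists near 0. Vascular smooth muscle markers reached 1.17 TPM in mouse 4 and 0.0582 TPM in mouse 3 (gap 0.950). Macrophage markers were at 9.36 TPM in mouse 3, all of it 176 counts of C1qb, and at 0 in the others (gap 1). Megakaryocyte and platelet markers were at 7.95 TPM in mouse 1 (gap 0.966).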

How the results depend on the processing

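Of 44 values of the 4 comparisons under other settings, 42 kept their direction. The difference between Bglap and Bglap2 became -0.028 with unique windows of 50 bases as length, and that between the osteocalcin sum and Sparc became -0.66 in CPM (counts scaled to 1000000 per library). In these 2 settings only the length changed. Windows of unique sequence were chosen after the data were seen, in place of a uniquely mappable length over the genome, which was not run. Leaving out each mouse in turn gave 0.53 to 0.62 for Bglap against Bglap2, 11.1 to 11.4 for Bglap2 against Bglap3, 1.86 to 2.31 for the osteocalcin sum against Sparc and 5.40 to 6.23 for Sparc against Mgp.

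Mean levels moved mainly with the length. With unique windows of 50, 100, 150 and 300 bases as length, Bglap was at 296574, 288051, 245069 and 300645 TPM, Bglap2 at 298682, 135867, 107201 and 124847 TPM, and the osteocalcin sum at 595278, 423947, 352302 and 425522 TPM. Sparc was at 53109 TPM (150 bases) and 50196 TPM (300 bases) and Mgp at 1502 TPM (300 bases). In CPM the means were 28418 for Bglap, 14266 for Bglap2, 42721 for the sum and 63566 for Sparc. Sparc was at 51293 TPM with the longest transcript as length and at 51319 TPM with the members out of the denominator, a scaling that raised the median of all genes by 0.21 to 0.50 on the log2 scale. Of 96 such values 75 moved by less than the SD between mice.

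Without mouse 3 the CV fell to 24.4% for Bglap, 20.4% for Bglap2 and 22.8% for the sum, and without mouse 1 that of Sparc fell to 1.59%. Leaving out each mouse in turn, the CV ranged to at most 49.4%, 40.6%, 45.9% and 25.8% for these. Counting error was small, with a CV averaged over the mice of at most 3.12% for any member. That figure treats counts as independent, which PCR copies are not. The number of mice limits every comparison.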
